A study of Mus musculus with 2 samples.

Results

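The genes of the MHC class II pathway followed through the cells of 2 mouse glioblastomas were H2-Aa, H2-Ab1, H2-Eb1, Cd74, Ciita, H2-DMa and H2-DMb1. They were taken by symbol from the gene list of both libraries, 7 of 27998 mouse genes, and each symbol occurred 1 time. Both samples were NPCTKO glioblastomas of C57BL/6 mice aged 3 months. In this model, cortical progenitors of the embryo were electroporated with a piggyBac transposon. It carried Cas9, luciferase, guides against tumour suppressor genes and an EGFP label. Electroporated cells and their descendants, malignant or not, thus carry EGFP while other host cells do not. The hosts carried a Cre driver, Tek-Cre or Tbx18CreERT2/+, with the Ai14 tdTomato reporter. Each driver gave 1 of the tumours and the labels do not say which, so that host, tumour and library cannot be told apart. No tumour-free brain was among the samples, and every comparison is between cell classes of the same tumours.

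MHC class II molecules present peptides from endocytosed protein to CD4+ T cells. H2-Aa and H2-Ab1 encode the alpha and beta chains of I-A, and H2-Eb1 encodes the beta chain of I-E. Cd74 encodes the invariant chain, which occupies the groove of a new molecule and guides it to the endosome. H2-DMa and H2-DMb1 encode chains of H2-DM, which exchanges the last fragment of the invariant chain for antigenic peptide. Ciita encodes the coactivator that switches these genes on together. It is expressed constitutively in professional antigen-presenting cells and is induced by interferon-gamma in many other cells. In the brain, microglia, macrophages and dendritic cells are the usual carriers of these genes.

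In the RefSeq annotation of GRCm38.p6, 5 of the 7 genes lie on chromosome 17: H2-DMa at chr17:34119693-34139101, H2-DMb1 at chr17:34153191-34160229, H2-Ab1 at chr17:34263227-34269418, H2-Aa at chr17:34282744-34287823 and H2-Eb1 at chr17:34305867-34316674. Ciita is at chr16:10480014-10531064. Class II promoters are known for an X box, bound by the RFX complex, followed by a Y box, bound by NF-Y, and together these recruit the coactivator encoded by Ciita. The RefSeq promoter windows, from 250 bases before to 50 bases after each start, were searched on both strands for the X core CTNGNAAC followed by the Y core GATTGG on the same strand within 40 bases, without overlap. The X core alone was in 13.2% of 32851 windows, the Y core alone in 16.1%, and the ordered pair in 52 windows, 0.158%. Of the 7 genes, 4 had a window (H2-Aa, H2-Eb1, H2-DMb1 and H2-DMa, which had 2), and the pair was in those of H2-Aa, H2-Eb1 and H2-DMb1. The stretches holding it are shown because they are what the promoters of these co-expressed genes share, at 24 to 27 bases between the boxes, with both cores in capitals and the related gene H2-Ob added. The windows of the other related genes H2-DMb2, H2-Oa and H2-Eb2 did not hold the pair. A match describes letters and does not show that a factor was bound.
H2-Aa, chr17:34287859-34287915, minus strand: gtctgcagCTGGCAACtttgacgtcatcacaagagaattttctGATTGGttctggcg
H2-Eb1, chr17:34305765-34305820, plus strand: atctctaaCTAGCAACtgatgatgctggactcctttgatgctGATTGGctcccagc
H2-DMb1, chr17:34153086-34153142, plus strand: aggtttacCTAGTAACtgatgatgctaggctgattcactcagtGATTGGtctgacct
H2-Ob, chr17:34238807-34238860, plus strand: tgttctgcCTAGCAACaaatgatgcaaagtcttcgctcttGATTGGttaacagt

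Tumour 1 gave 11380 and tumour 2 gave 13200 cells after filtering, with medians of 18082.5 and 13074 unique molecular identifiers (UMIs, tags that count each captured transcript 1 time) per cell. The libraries shared 51 barcodes. Cells were assigned to classes by their own marker genes, without any MHC class II gene, and 5629 and 4524 cells met exactly 1 gate. Levels are given as UMIs per 10,000 UMIs of mouse genes, summed over a class, for tumour 1 and then tumour 2. The classes were dendritic cells (24 and 73 cells), C1q macrophages (158 and 340), microglia (507 and 417), monocytes (20 and 589), endothelial cells (45 and 24), EGFP-high glioma cells (4478 and 2229), oligodendrocytes (137 and 105) and T cells (245 and 483). The macrophage markers Ms4a7 and Mrc1, which the C1q macrophage gate did not use, summed to 4.45 and 3.27 in C1q macrophages, against 0.520 and 0.422 in microglia. The microglia gate required this sum to be under 4 in each cell, so the low microglial value is no independent check. Between the microglia and macrophage gates, 105 and 102 cells of intermediate microglial marker level were left out. Oligodendrocytes carried EGFP at 52.2 and 129.7 UMIs per 10,000, so that this class was not free of the tumour label. Mouse T cells are not known to make class II, and their level is given beside each class as a background. It is taken as what free RNA of the suspension leaves in a droplet. Whether the T-cell class also holds class II RNA of its own or of admixed cells was not tested.

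Summed over the 7 genes, class II transcripts were 362.8 and 458.5 UMIs per 10,000 in dendritic cells, 469.2 and 465.3 in C1q macrophages, 328.1 and 266.4 in monocytes and 206.1 and 105.6 in microglia. The sums were 15.1 and 45.7 in endothelial cells, 12.6 and 15.9 in EGFP-high glioma cells and 6.06 and 7.44 in oligodendrocytes, against 4.35 and 8.27 in T cells. Of these classes, the 4 myeloid ones stood far above the others in both tumours. B cells, with 4 and 34 cells and in no comparison, had sums of 92.9 and 281.9, in tumour 2 above monocytes and microglia. Endothelial and EGFP-high glioma cells stood between the 4 myeloid classes and T cells. Other gated classes of tumour 2, also in no comparison, were neutrophils (114 cells) at 12.8, natural killer cells (91) at 7.74 and mural cells (25) at 4.40. Neutrophils too thus stood between T cells and those myeloid classes.

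**Figure D1:**
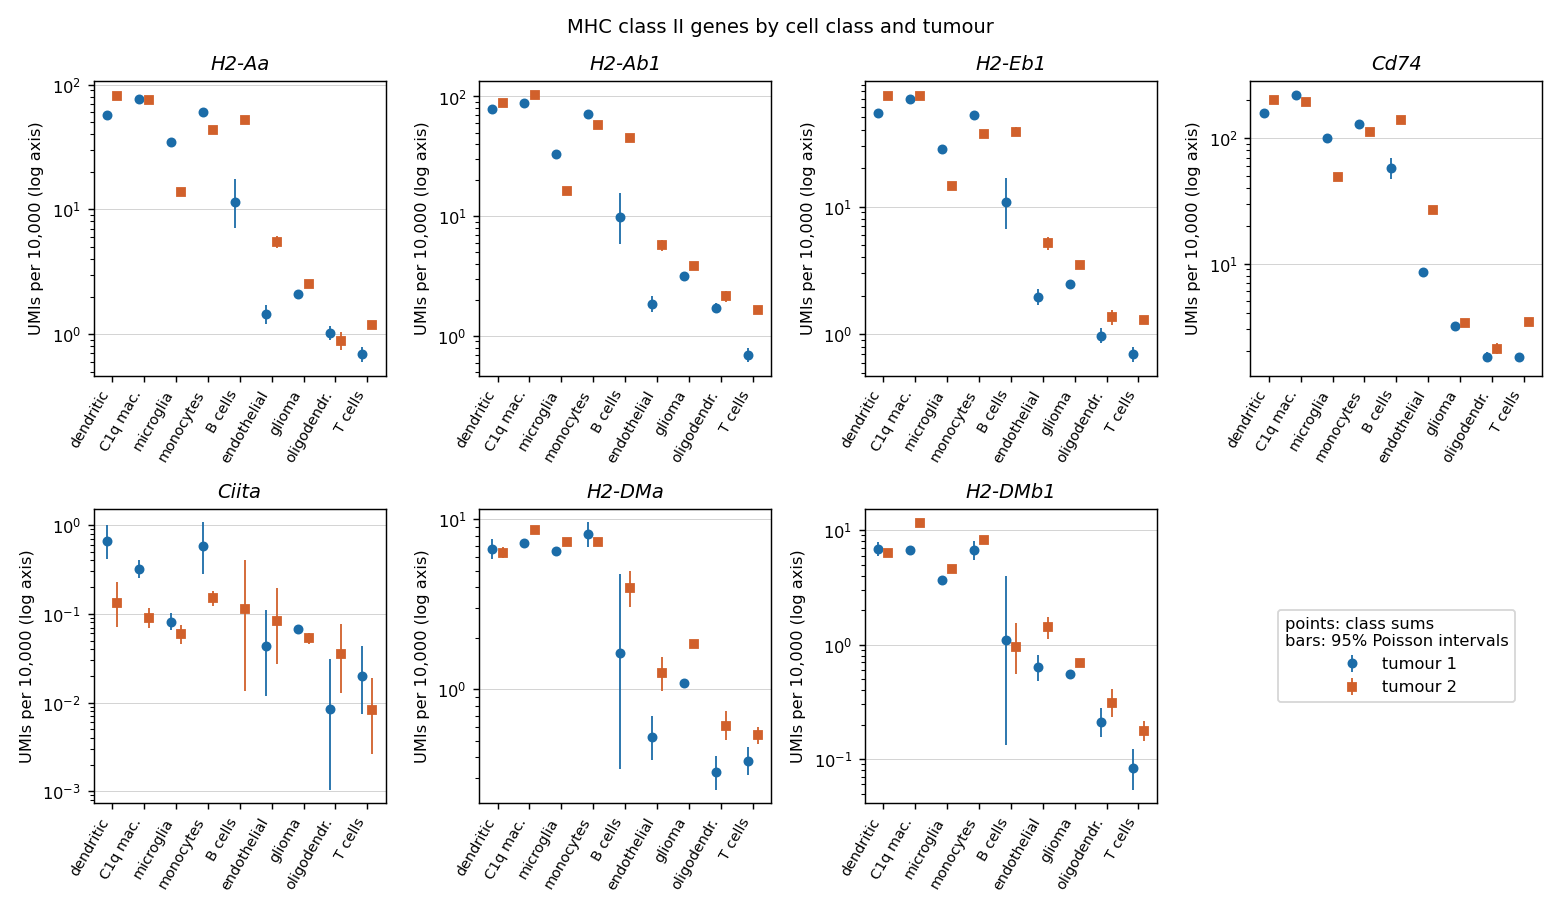
Level of each MHC class II gene in UMIs per 10,000 (log axis) by cell class, with tumour 1 as circles, tumour 2 as squares and 95% Poisson intervals as bars. Cd74 runs from 221.0 in C1q macrophages of tumour 1 down to 1.79 in T cells of tumour 1, and EGFP-high glioma cells lie above T cells in both tumours for every gene except Cd74, which lies below them in tumour 2.

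Among the chains of the class II molecule, H2-Ab1 was at 78.6 and 87.6 UMIs per 10,000 in dendritic cells, 88.0 and 103.2 in C1q macrophages, 70.8 and 58.0 in monocytes and 33.4 and 16.3 in microglia. It was at 1.85 and 5.71 in endothelial cells and 3.19 and 3.88 in EGFP-high glioma cells, against 0.696 and 1.64 in T cells. Its order over the myeloid classes was the same in both tumours, with microglia lowest. H2-Aa, whose order among the other myeloid classes differed between the tumours, was also lowest in microglia, with 57.3 and 81.7 in dendritic cells, 76.7 and 74.9 in C1q macrophages, 60.1 and 43.0 in monocytes and 35.0 and 13.8 in microglia. It was at 1.45 and 5.49 in endothelial cells and 2.11 and 2.53 in EGFP-high glioma cells, against 0.686 and 1.18 in T cells. H2-Eb1 was at 53.6 and 73.9 in dendritic cells, 69.2 and 73.7 in C1q macrophages, 51.9 and 37.2 in monocytes and 28.0 and 14.5 in microglia. It was at 1.97 and 5.16 in endothelial cells and 2.46 and 3.49 in EGFP-high glioma cells, against 0.696 and 1.30 in T cells.

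Cd74, the invariant chain, lies at chr18:60803849-60812652 in the same annotation. It was at 159.2 and 202.5 UMIs per 10,000 in dendritic cells, 221.0 and 193.4 in C1q macrophages, 129.9 and 112.5 in monocytes and 99.5 and 49.0 in microglia. It was at 8.58 and 26.6 in endothelial cells and only 3.16 and 3.38 in EGFP-high glioma cells, against 1.79 and 3.42 in T cells. In glioma cells of tumour 2 the invariant chain thus did not exceed its level in T cells, whereas the H2 chains did.

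The peptide exchange chains separated the classes differently. H2-DMa spanned a narrower range over the myeloid classes than the other genes, at 6.73 and 6.38 in dendritic cells, 7.27 and 8.63 in C1q macrophages, 8.17 and 7.36 in monocytes and 6.56 and 7.37 in microglia. It was at 0.523 and 1.25 in endothelial cells and 1.09 and 1.85 in EGFP-high glioma cells, against 0.380 and 0.536 in T cells. Microglia, lowest of the myeloid classes for the H2 chains and Cd74 in both tumours, were lowest for H2-DMa in tumour 1 and above dendritic cells in tumour 2. H2-DMb1 was at 6.85 and 6.33 in dendritic cells, 6.73 and 11.5 in C1q macrophages, 6.70 and 8.21 in monocytes and 3.65 and 4.54 in microglia. It was at 0.632 and 1.41 in endothelial cells and 0.549 and 0.698 in EGFP-high glioma cells, against 0.0833 and 0.177 in T cells.

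Ciita was sparse everywhere, as is usual for a transcriptional regulator. It was at 0.667 and 0.132 UMIs per 10,000 in dendritic cells (22 and 13 UMIs), 0.324 and 0.0901 in C1q macrophages (75 and 59), 0.588 and 0.150 in monocytes (10 and 112) and 0.0818 and 0.0587 in microglia (84 and 64). EGFP-high glioma cells held 703 and 217 Ciita UMIs, 0.0673 and 0.0531 per 10,000, against 6 and 5 UMIs in T cells, 0.0200 and 0.00817 per 10,000. The exact 95% Poisson intervals of glioma cells, 0.0624 to 0.0725 and 0.0463 to 0.0607, lay above those of T cells, 0.00733 to 0.0435 and 0.00265 to 0.0191, in both tumours. All such intervals cover counting error only. Endothelial cells held 4 and 5 Ciita UMIs, too few to place them: their intervals, 0.0119 to 0.112 and 0.0269 to 0.194, took in the glioma level in both tumours.

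Classes were compared with edgeR's quasi-likelihood test on UMIs summed per class and tumour, over 13008 genes with Benjamini-Hochberg adjustment and the tumour as a block. Each p-value sets a class difference against deviations between 2 animals pooled over 8 classes. The comparisons with T cells share those T cells. All 7 genes were called higher than in T cells in dendritic cells, where 7.66% of all genes were called higher (12.1% at an unadjusted p under 0.05), in C1q macrophages (13.0% of all genes), in monocytes (11.9%) and in microglia (15.3%). The median log2 fold change over the 7 genes was 6.00 in dendritic cells, 6.26 in C1q macrophages, 5.45 in monocytes and 4.63 in microglia, beside medians over all genes of -0.20, -0.11, -0.17 and -0.14. Cd74 had log2 fold changes of 6.12 (SE 0.50) in dendritic cells, 6.43 (SE 0.51) in C1q macrophages, 5.45 (SE 0.49) in monocytes and 5.02 (SE 0.48) in microglia. Ciita had the lowest adjusted significance of the 7 genes in these 4 comparisons, with edgeR adjusted p-values of 0.00061, 0.00051, 0.00046 and 0.0104. Its log2 fold changes were 4.59 (SE 0.76), 3.84 (SE 0.68), 4.22 (SE 0.73) and 2.53 (SE 0.69) in the same order.

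**Figure D2:**
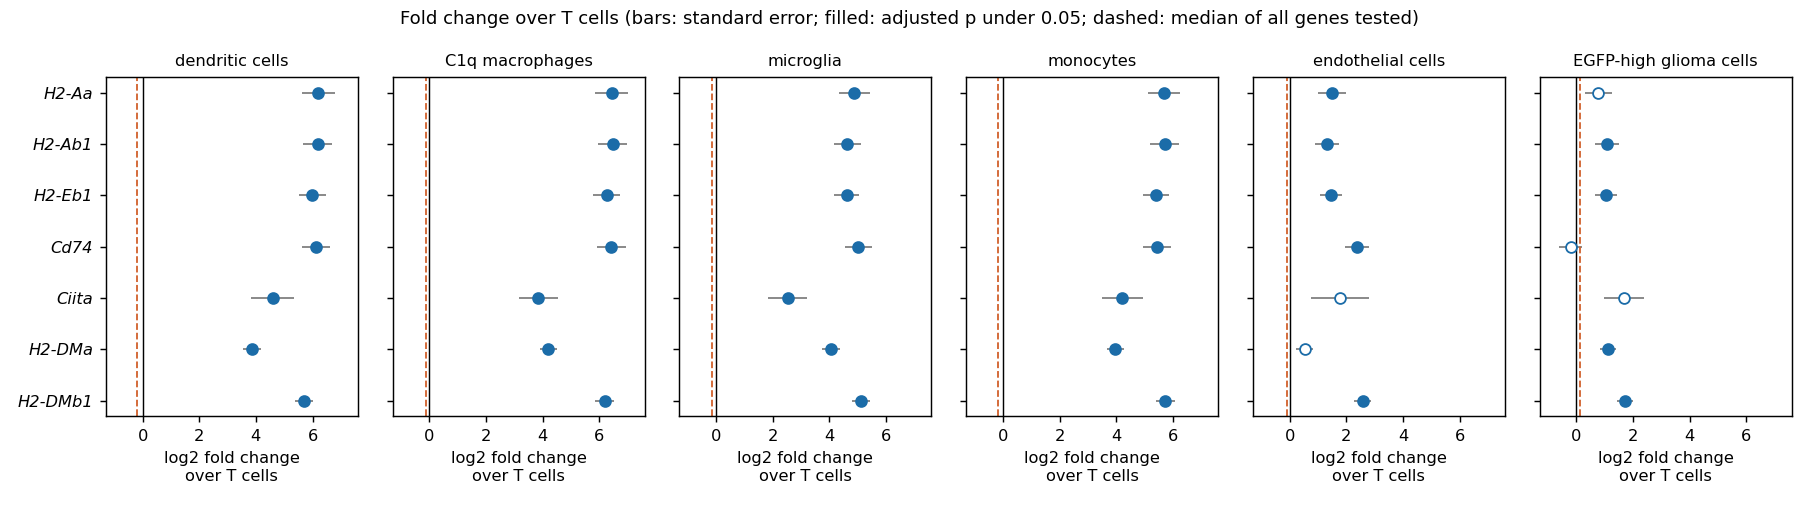
Log2 fold change of each gene over T cells in 6 classes (points, with standard errors as bars, filled where the adjusted p was under 0.05), with the median over all 13008 genes as a dashed line. All 7 genes are filled in the 4 myeloid panels, 5 in endothelial cells and 4 in EGFP-high glioma cells, where Cd74 sits at -0.20.

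Neighbours in the order of levels were compared next. Dendritic cells and C1q macrophages were not separated for any of the 7 genes, with 0 called by edgeR, 0 higher at an unadjusted p under 0.05 (8.40% of all genes were) and 0 by DESeq2, while 3.31% of all genes were called higher and 3.41% lower. The largest difference was that of Ciita, 0.75 (SE 0.59), and the median over the 7 genes was -0.28. C1q macrophages had 0 genes called against monocytes by edgeR and by DESeq2 (0.361% of all genes were higher), and 2 at an unadjusted p under 0.05 (5.88% of all genes), Cd74 at 0.98 (SE 0.40) and H2-Eb1 at 0.87 (SE 0.38). Monocytes also had 0 called against microglia by both tools (4.55% of all genes were higher), with 3 at an unadjusted p under 0.05 (9.55% of all genes): Ciita at 1.69 (SE 0.57), H2-Ab1 at 1.08 (SE 0.42) and H2-DMb1 at 0.63 (SE 0.26). Without the filter on low counts, 4 genes were called in each of these last 2 comparisons, where 214 and 843 of 21321 genes were called higher.

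C1q macrophages exceeded microglia in 3 of the 7 genes, where 2.04% of all genes were called higher, and in 6 at an unadjusted p under 0.05 (5.70% of all genes). H2-Ab1 was 1.83 higher on the log2 scale (SE 0.42, edgeR adjusted p = 0.024), H2-Eb1 1.65 higher (SE 0.39, adjusted p = 0.025) and H2-DMb1 1.08 higher (SE 0.26, adjusted p = 0.026). Cd74 at 1.40 (SE 0.41, adjusted p = 0.080), H2-Aa at 1.55 (SE 0.48, adjusted p = 0.10) and Ciita at 1.31 (SE 0.51, adjusted p = 0.26) did not pass, and H2-DMa stood at 0.15 (SE 0.27). Without the tumour block the count was 0, where 35 of all 13008 genes were called higher. Each tumour on its own gave a ratio above 0 for all 7 genes, with H2-Ab1 at 1.32 in tumour 1 and 2.67 in tumour 2.

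Cell by cell, the 4 most abundant genes (H2-Aa, H2-Ab1, H2-Eb1 and Cd74, summed) spread differently in each class. C1q macrophages had medians of 515.1 and 453.4 UMIs per 10,000, with 10th to 90th percentiles of 174.0 to 755.9 and 73.2 to 786.5. Monocytes had medians of 148.8 and 130.2, and in tumour 2, with 589 cells, their percentiles ran from 5.35 to 625.5. Monocytes therefore ranged from the level of T cells, whose 90th percentiles were 5.32 and 13.6, to that of macrophages. Microglia differed between tumours, with medians of 177.4 in tumour 1 and 46.1 in tumour 2 and 10th percentiles of 48.1 and 4.30. Their 7-gene sum was 1.95 times as high in tumour 1, whereas that of C1q macrophages was 1.01 times as high. With 1 library per tumour this was not tested, and host, tumour and library cannot be told apart.

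**Figure D3:**
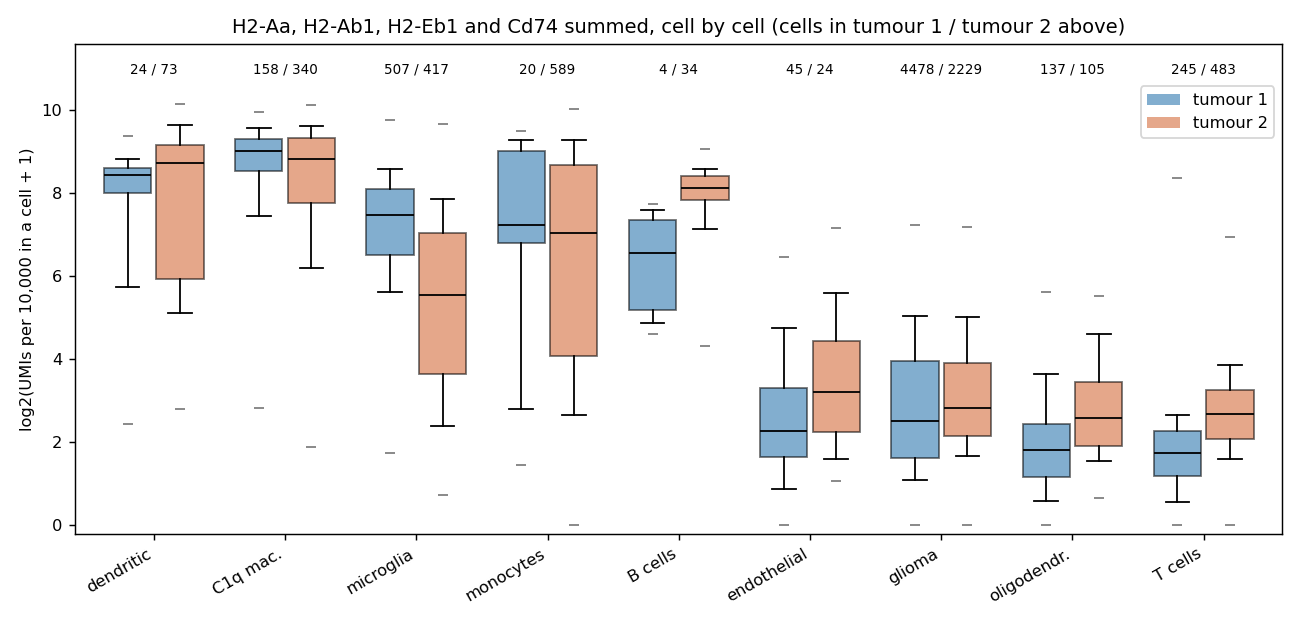
H2-Aa, H2-Ab1, H2-Eb1 and Cd74 summed in each cell, as log2(UMIs per 10,000 + 1), by class and tumour, with medians as lines, quartiles as boxes, 10th and 90th percentiles as whiskers and lowest and highest cells as dashes. Monocytes and microglia of tumour 2 span most of the axis, and 1 T cell of tumour 1 stands at 330.6 UMIs per 10,000.

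Among dendritic cells, subsets were set by marker genes outside the class II list. Mature cells, defined by Ccr7, Ccl22, Fscn1 and Il4i1, had H2-Ab1 at 15.8 and 68.6 UMIs per 10,000 (8 and 30 cells). Conventional type 1 cells, defined by Xcr1 and Clec9a, had H2-Ab1 at 88.7 and 124.0 (14 and 13 cells). H2-DMa was at 0.533 and 3.96 in mature cells and at 7.59 and 8.45 in type 1 cells, and H2-DMb1 at 1.42 and 2.48 against 7.67 and 11.0. Mature cells were thus lower in both peptide exchange chains than type 1 cells in both tumours, and lower in Cd74 as well, with 69.9 and 168.2 against 173.9 and 246.6. The 24 type 2 cells of tumour 2, defined by Cd209a and Clec10a, had H2-Ab1 at 84.2 and H2-DMa at 7.93, and its 6 plasmacytoid cells 44.0 and 3.80. With so few cells these values are descriptions, and no test was made between subsets.

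EGFP-high glioma cells were gated by their transgene and by Sox2, Olig2, Cspg4 and Pdgfra, and malignancy was not called by copy number. They were compared with T cells to ask whether they carry class II transcripts above the level found there. Of the 7 genes, 4 were called higher, where 27.0% of all genes were called higher, and 5 at an unadjusted p under 0.05, where 30.2% were. H2-DMb1 was 1.73 higher on the log2 scale (SE 0.28, edgeR adjusted p = 0.00011), H2-DMa 1.11 higher (SE 0.28, adjusted p = 0.0041), H2-Ab1 1.08 higher (SE 0.42, adjusted p = 0.044) and H2-Eb1 1.03 higher (SE 0.38, adjusted p = 0.037). Ciita, at 1.68 (SE 0.69, adjusted p = 0.057), and H2-Aa, at 0.77 (SE 0.47, adjusted p = 0.20), did not pass. Cd74 was at -0.20 (SE 0.40, adjusted p = 0.72), with 0.22 in tumour 1 and -0.53 in tumour 2. The count was 1 without the tumour block, 2 with DESeq2 or with stricter gates, and 6 when scaled by library size alone, a scaling that moved the median of all genes to 0.67, against 0.11, and Cd74 to 0.36. Of all 13008 genes, 2252 were called higher without the block, 3588 with DESeq2 and 5669 by library size. With stricter gates it was 2965 of 11815. These folds rest on the T cells chosen: 1 T cell of tumour 1 held 198 of the 536 Cd74 UMIs of its class, and without the highest T cell of each tumour H2-Aa was at 1.12 and Cd74 at 0.10, with 4 genes called again.

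Transcripts of myeloid cells that serve as gauges of free RNA gave mixed values. C1qa, C1qb and C1qc, transcripts of microglia and macrophages that neither class is known to make, summed to 1.22 and 2.04 UMIs per 10,000 in EGFP-high glioma cells, against 1.46 and 2.58 in T cells. Their level in glioma cells was 0.839 and 0.788 times that in T cells. The gates of glioma, T and endothelial cells took only cells with C1q under 16 UMIs per 10,000. C1q in these classes, and in the parts of them described below, was thus bounded beforehand. Csf1r was at 0.0431 and 0.0536 in glioma cells, against 0.0466 and 0.0703 in T cells, and Lyz2 at 0.271 and 0.505, against 0.313 and 0.668. Apoe, which glial cells can also make, was higher in glioma cells, at 16.9 and 10.2, against 6.75 and 4.29. C1q, Csf1r and Lyz2 were thus lower in glioma cells in both tumours, while Apoe and 6 of the 7 class II genes were higher in both. Ctss was also lower in glioma cells, at 0.315 and 0.520, against 1.14 and 1.83. With Apoe and Ctss included, the gauge genes summed to 18.7 and 13.4 in glioma cells, against 9.70 and 9.45 in T cells. Of these genes only Apoe was higher in glioma cells in both tumours. The part of free RNA in the glioma levels was not tested.

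Detection gave the same order. Thinned to 2000 UMIs per cell, H2-Ab1 was found in 36.2% and 41.5% of EGFP-high glioma cells, against 11.4% and 26.9% of T cells. Unthinned, these shares were 84.3% and 87.8% of glioma cells, against 46.1% and 74.7% of T cells, at median depths of 19511.5 and 15172 UMIs in glioma cells and 10207 and 8218 in T cells. Cd74 was found in 34.0% and 39.2% of thinned glioma cells, against 15.5% and 39.5% of T cells. In tumour 2 its share thus did not exceed that of T cells. Thinned neutrophils of tumour 2 held H2-Ab1 in 51.75% and Cd74 in 55.3% of cells, both above the glioma shares. Ciita was found in 1.30% and 1.12% of thinned glioma cells, against 0.408% and 0.414% of T cells, and in 9.56% and 8.17% unthinned, against 2.45% and 1.04%. The exact binomial intervals of glioma and T cells did not overlap for 6 of the 7 genes in tumour 1 and for 5 in tumour 2. The same share over all genes was not computed, so these counts cannot be read as a trait of the 7 genes.

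The glioma transcripts were unevenly spread over cells. With every cell thinned to 5000 UMIs, 19.1% (95% interval 17.9 to 20.3) and 17.9% (16.2 to 19.6) of EGFP-high glioma cells held 10 or more UMIs of the 4 genes. The shares were 0.437% (0.0111 to 2.41) and 3.49% (1.97 to 5.69) of T cells, and 6.61% and 5.88% of oligodendrocytes. Unthinned, at the same level per UMI, they were 18.8% and 18.6% of glioma cells, against 0.408% and 3.31% of T cells. Shallower cells were left out, 161 and 204 glioma cells and 16 and 53 T cells. The decile of glioma cells highest in the 4 genes, each with at least 32.3 or 31.5 UMIs per 10,000, held 42.3% and 47.1% of the class's UMIs of these genes. In this decile C1q was at 1.49 and 1.81 UMIs per 10,000, against 1.19 and 2.07 in the other glioma cells, and EGFP at 232.4 and 209.0, against 143.1 and 186.7. Ciita, which did not choose the decile, was at 0.340 and 0.135 in it, against 0.0390 and 0.0420 in the other glioma cells. H2-DMa was at 3.56 and 6.39, against 0.830 and 1.24. The cells with most class II were thus also higher in Ciita and H2-DMa in both tumours, whereas their C1q was higher in tumour 1 and lower in tumour 2.

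The balance between the H2 chains and the invariant chain in glioma cells lay outside the range of dendritic cells, C1q macrophages, monocytes and microglia, here called the myeloid range. For every 100 Cd74 UMIs, EGFP-high glioma cells held 66.6 and 75.01 H2-Aa UMIs, 101.0 and 114.8 H2-Ab1 UMIs and 34.4 and 54.9 H2-DMa UMIs. Those myeloid classes held 28.2 to 46.3 H2-Aa, 33.2 to 54.5 H2-Ab1 and 3.15 to 15.03 H2-DMa UMIs, and T cells 38.4 and 34.4, 39.0 and 48.0, and 21.3 and 15.7. T cells were thus within the myeloid range for H2-Aa and H2-Ab1, and glioma cells were above it for all 3 genes in both tumours. Oligodendrocytes, the other class with EGFP and with a 7-gene sum near that of T cells, also lay above the myeloid range for H2-Ab1, at 95.3 and 102.2, and for H2-DMa, at 18.01 and 29.1, while their H2-Aa was at 56.2 and 41.7. The 25 mural cells of tumour 2 held 119.4 H2-Ab1 UMIs per 100 Cd74 UMIs, on 43 and 36 UMIs. Natural killer cells of tumour 2, with 177 Cd74 UMIs, held 67.8 H2-Ab1 and 24.9 H2-DMa UMIs per 100. Its neutrophils, with 200 Cd74 UMIs, held 81.5 H2-Ab1 UMIs per 100. The H2-Aa of these 2 classes, at 40.7 and 41.5, lay within the myeloid range, as did the H2-DMa of neutrophils. An H2-Ab1 ratio above the myeloid range was thus not confined to glioma cells and oligodendrocytes. Endothelial cells departed in the other direction, with 16.9 and 20.6 H2-Aa and 21.6 and 21.4 H2-Ab1 UMIs per 100 Cd74 UMIs. These ratios are compared between classes, as descriptions with no test, and do not compare the amounts of the transcripts themselves.

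**Figure D4:**
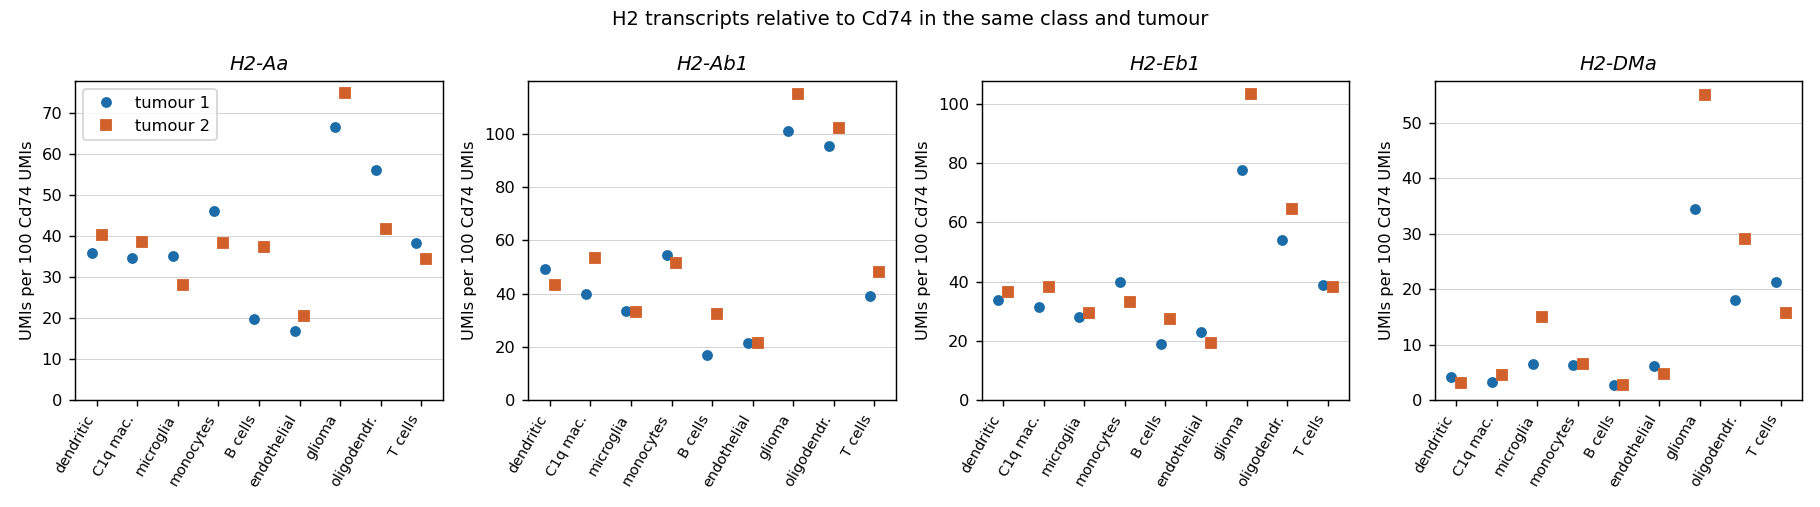
UMIs of H2-Aa, H2-Ab1, H2-Eb1 and H2-DMa for every 100 Cd74 UMIs in each class, with tumour 1 as circles and tumour 2 as squares. Of the plotted classes, EGFP-high glioma cells are highest in all 4 panels in both tumours, at 101.0 and 114.8 for H2-Ab1, and endothelial cells are lower than T cells in all 4 panels.

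Endothelial cells were compared with T cells in the same way. Of the 7 genes, 5 were called higher (17.0% of all genes were): H2-DMb1 at 2.58 (SE 0.30, edgeR adjusted p = 8.0e-06), Cd74 at 2.38 (SE 0.42, adjusted p = 0.00043), H2-Aa at 1.50 (SE 0.49, adjusted p = 0.027), H2-Eb1 at 1.45 (SE 0.39, adjusted p = 0.010) and H2-Ab1 at 1.31 (SE 0.43, adjusted p = 0.028). Ciita, at 1.77 (SE 1.01, adjusted p = 0.21), and H2-DMa, at 0.54 (SE 0.30, adjusted p = 0.20), did not pass. Against EGFP-high glioma cells, 2 genes were called higher (16.7% of all genes were), Cd74 at 2.57 (SE 0.43, adjusted p = 0.00023) and H2-DMb1 at 0.85 (SE 0.27, adjusted p = 0.025). These counts leaned on few cells. The 5 endothelial cells with most UMIs of the 4 genes held 68.3% of them in tumour 1 and 93.4% in tumour 2. In those 5 cells Cd74 was at 21.6 and 59.0 UMIs per 10,000, against 3.60 and 1.73 in the other 40 and 19 endothelial cells, and against 1.79 and 3.42 in T cells. Their endothelial markers summed to 74.9 and 37.6, against 113.7 and 61.1 in the other cells, and C1q to 1.69 and 4.77, against 1.97 and 1.85. Their interferon list stood at 32.7 and 104.9, against 23.8 and 26.5. Whether these cells are endothelial cells with induced class II or hold RNA of another cell was not tested. With stricter gates, which kept 43 and 10 endothelial cells, 1 gene was called against T cells, and 0 were higher against glioma cells with 1 lower. Of 11815 genes, 1924 were then higher against T cells, and 1870 were higher and 1728 lower against glioma cells.

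Interferon-gamma induces Ciita, so the classes were divided into terciles of cells by a list of 15 interferon-gamma response genes that holds no class II gene (Irf1, Gbp2 and Cxcl10 among them). In EGFP-high glioma cells Ciita was at 0.144 and 0.100 UMIs per 10,000 in the highest tercile, against 0.0176 and 0.00759 in the lowest. Cd74 was at 5.001 and 5.77, against 1.60 and 1.30, and H2-Ab1 at 4.74 and 6.65, against 1.76 and 1.20. H2-DMa was at 1.63 and 3.28, against 0.588 and 0.514. All 7 genes were higher in the highest tercile in both tumours, with ratios of 2.69 to 8.16 in tumour 1 and 4.43 to 13.2 in tumour 2. C1q, bounded by the gate, was at 1.28 and 1.84 in the highest tercile, against 1.13 and 2.20 in the lowest. All gauge genes, with Apoe and Ctss, summed to 26.35 and 14.25 in the highest, against 11.3 and 11.67. EGFP was at 150.2 and 227.3, against 145.1 and 152.5. The median depth was 18206 and 19178 UMIs, against 20142 and 13150. The part of free RNA in these differences was not tested.

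In myeloid cells the terciles spanned other ranges of the list, so the sizes of their ratios are not set against those of glioma cells. The list was at 63.3 and 69.2 UMIs per 10,000 in the highest tercile of microglia, against 14.7 and 23.3 in the lowest. In glioma cells it was at 44.5 and 96.3, against 7.72 and 14.9. In microglia Cd74 was at 129.3 and 69.7 UMIs per 10,000 in the highest tercile, against 77.1 and 24.2 in the lowest, and in C1q macrophages at 251.3 and 226.0, against 186.5 and 155.0. In monocytes it was lower in the highest tercile, at 144.9 and 96.8, against 166.6 and 122.7, although Ciita in the monocytes of tumour 2 was at 0.212 (53 UMIs), against 0.0701 (18 UMIs). The terciles of monocytes in tumour 1 held 6 or 7 cells. With 2 tumours these are descriptions of cells within a library, and neither the trend nor its difference between classes was tested.

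**Figure D5:**
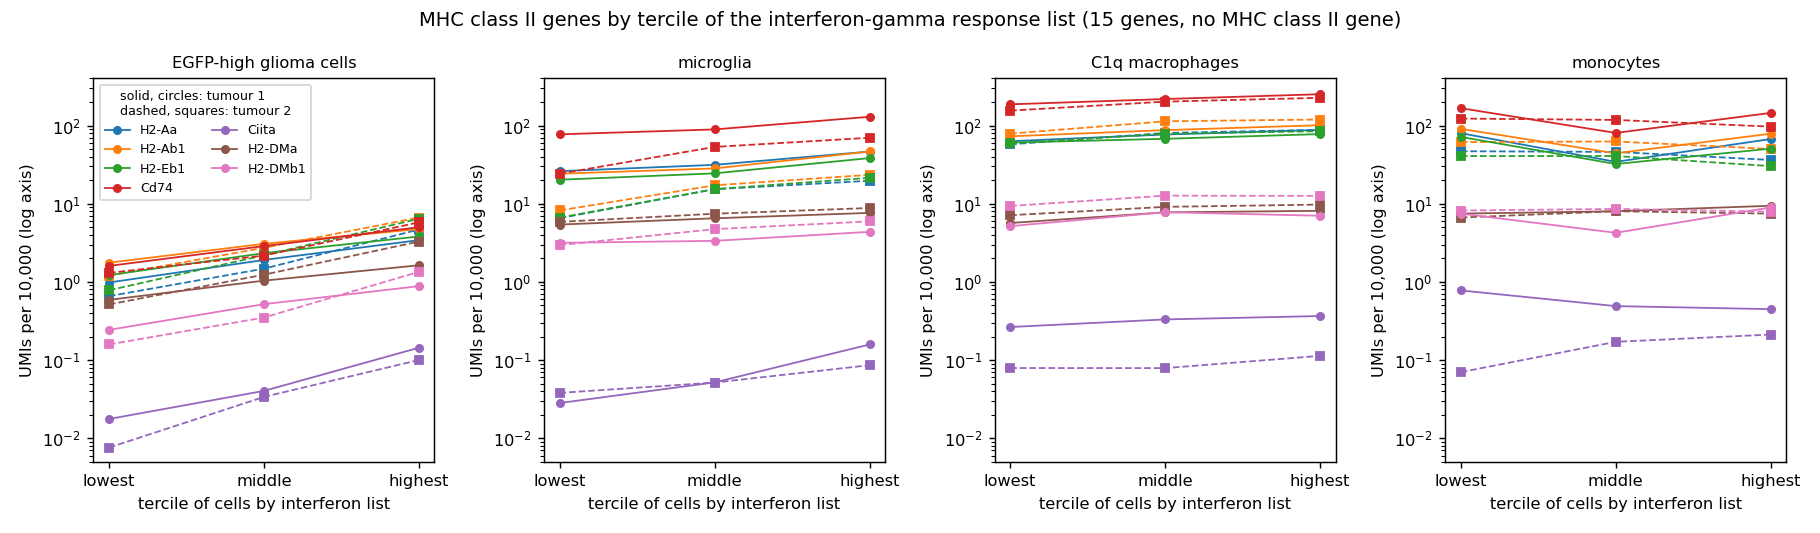
Level of the 7 genes in UMIs per 10,000 (log axis) by tercile of cells ranked on 15 interferon-gamma response genes, in EGFP-high glioma cells, microglia, C1q macrophages and monocytes, with tumour 1 as solid lines and circles and tumour 2 as dashed lines and squares. Every line climbs in EGFP-high glioma cells, with Ciita at 0.144 and 0.100 in the highest tercile, and Cd74 of monocytes ends below its start at 144.9 and 96.8.

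In glioma cells and in all 4 myeloid classes, cells with a Ciita UMI were higher in the 4 genes than cells of the same class without one, whereas in T cells they were not. Glioma cells with a Ciita UMI (428 and 182 cells) had medians of 23.2 and 18.3 UMIs per 10,000 for the 4 genes, against 4.08 and 5.63 in the others. Microglia with one (62 and 50 cells) had medians of 284.2 and 107.5, against 159.7 and 40.9. Dendritic cells with one (13 and 11 cells) had medians of 370.3 and 545.5, against 244.2 and 326.8. C1q macrophages with one (54 and 48 cells) had 552.7 and 526.7, against 501.9 and 442.6. Monocytes with one (7 and 84 cells) had 422.9 and 159.3, against 133.4 and 128.4. T cells with one (6 and 5 cells) had medians of 1.49 and 3.68, against 2.38 and 5.51 in the other T cells. The glioma cells and microglia with a Ciita UMI were deeper, with median totals of 24834 and 26517 UMIs against 18977 and 14618 in glioma cells, and 21571 and 27341.5 against 19037 and 25596 in microglia. Cells with one were also deeper in dendritic cells, C1q macrophages and monocytes of both tumours.

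The remaining genes of the pathway were followed as a list of 24, of which 23 passed the filter on low counts. H2-Eb2, the other I-E type beta gene, did not pass. Against T cells, dendritic cells had 15 of 23 genes higher and 2 lower, where 7.66% of all genes were higher and 6.27% lower. Cd40, which receives help from T cells, was 6.44 higher on the log2 scale (SE 0.40, adjusted p = 1.1e-07), H2-DMb2, a further H2-DM beta gene, 5.50 higher (SE 0.63), and H2-Ob, a chain of the H2-DM inhibitor H2-O, 4.96 higher (SE 0.73). Ifi30, a thiol reductase of the endosome, was 4.81 higher (SE 0.58), Cd83 4.54 higher (SE 0.46) and Cd86, a costimulatory ligand, 4.31 higher (SE 0.46). Dendritic cells and C1q macrophages, with 0 of the 7 genes called between them, differed in 5 of the 23. H2-Ob at 3.18 (SE 0.64), Jak2 at 2.21 (SE 0.32) and H2-DMb2 at 2.11 (SE 0.53) were higher in dendritic cells. The endosomal proteases Lgmn at -3.20 (SE 0.26) and Ctss at -3.01 (SE 0.33), which is known for trimming the invariant chain, were lower. Cd40 was the only gene of the list called between C1q macrophages and microglia, at 1.98 (SE 0.28, adjusted p = 0.00069).

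In EGFP-high glioma cells the rest of the pathway did not follow the 7 genes. Of 23 genes, 5 were higher than in T cells and 13 lower, with a median of -1.42, where 27.0% of all genes were higher and 19.9% lower. The costimulatory ligand Cd80 was at -6.86 (SE 0.54), H2-Oa, a chain of H2-O, at -4.95 (SE 0.58), and Ifngr1, the ligand-binding chain of the interferon-gamma receptor, at -4.72 (SE 0.38). Ifngr1 was also lower than in T cells in dendritic cells (-1.55), C1q macrophages (-1.72), monocytes (-1.41) and microglia (-1.60). T cells thus held more of it than every class compared with them, and its folds are not distances from a free RNA level. H2-Ob was at -4.10 (SE 0.90) and the ubiquitin ligase gene March1, whose product removes class II from the surface, was 3.73 higher (SE 0.64). H2-DMb2 was at -3.42 (SE 0.68). H2-Oa, H2-Ob and H2-DMb2 were thus higher in T cells than in glioma cells. For these genes the T-cell level is not a floor shared by all classes. The RFX subunit genes Rfx5 at 0.07 (SE 0.38), Rfxap at 0.33 (SE 0.27) and Rfxank at -0.37 (SE 0.36) did not pass the test. In endothelial cells 5 of the 23 were higher than in T cells and 8 lower (17.0% and 15.2% of all genes), with Cd40 at 4.57 (SE 0.42), Ctsl, a lysosomal protease, at 3.28 (SE 0.53), and Lgmn at 2.90 (SE 0.26) above, and Cd80 at -3.77 (SE 0.99), H2-Oa at -3.74 (SE 1.10) and Ifngr1 at -3.68 (SE 0.40) below.

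Genes whose level followed the mean of the 7 genes most closely were ranked by Pearson correlation of log2 CPM over the 8 classes of a tumour, averaged over both tumours. The members themselves had mean correlations of 0.91 (Ciita) to 1.00 (H2-Eb1) with this mean, of which each is a part. The 10 closest other genes were Nuak2 (0.97), Pirb (0.97), Cxcl16 (0.97), Btk, Slc2a6, 2310040G24Rik, Oasl1, Rab32, Spi1 and Csf2ra, with the last 7 at 0.96. Nuak2 was at 55.5 and 58.8 CPM in dendritic cells and at 0.459 and 0.806 CPM in EGFP-high glioma cells, against 0.692 and 0.591 CPM in T cells. The 8 points of each correlation share a library, and most of the agreement is the step between myeloid and other classes.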

How the data were processed

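The deposited matrices hold UMI counts, not normalised, from the authors, who aligned 3′ reads of 2 libraries to mm10 (GRCm38) with transgenes added, using Cell Ranger 4.0.0, per the submitters' processing notes, which also name Seurat. Barcodes with at least 500 genes, under 20% mitochondrial and under 5% haemoglobin UMIs were kept, and the highest Scrublet scores (scanpy 1.11.5) were removed at 0.8% per 1000 barcodes, 11.4% and 14.9% of barcodes. Its automatic threshold marked 683 and 209 barcodes. Cells of at least 2000 UMIs were gated on raw markers. Gate thresholds were set after seeing marker levels, and the monocyte minimum was lowered to 16 so that tumour 1 reached 20 cells. UMIs were summed per class and tumour and tested with edgeR 4.0.16 (R 4.3.3, filterByExpr, TMM, quasi-likelihood; 16 sums, 7 residual degrees of freedom, common dispersion 0.0508). Transgenes stayed out of totals. Tumour was a block because classes of a library share an animal, and the 28 class pairs had deviation correlations of 0.039 to 0.590. Poisson and binomial intervals are exact at 95%. The members, gene lists and named-gene rule (all 7 genes, up to 6 passing pathway genes per comparison by fold, 10 most alike genes) were chosen with earlier results of these data known. Alternatives were DESeq2 1.42.0, 2 other scalings, no filter, no block, other doublet, mitochondrial, gate and T-cell choices, and each tumour alone. Tests were tried on simulated data. Some items are not reported here.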

Additional observations from a re-analysis of the deposited data

Results flagged for a closer look

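Several ratios pointed in opposite directions in the 2 tumours, and none of these differences was tested. Against T cells, Cd74 in EGFP-high glioma cells had a log2 ratio of 0.22 in tumour 1 and -0.53 in tumour 2. H2-Aa in dendritic cells against C1q macrophages had -0.50 in tumour 1 and 0.03 in tumour 2. In endothelial against EGFP-high glioma cells, Ciita had -0.37 and 0.80, H2-Aa -0.28 and 1.28, H2-Ab1 -0.53 and 0.72, and H2-Eb1 -0.062 and 0.73.

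Between the highest and the lowest tercile of the interferon-gamma list, 4 genes moved one way in EGFP-high glioma cells and the other way in monocytes, in both tumours, and this difference was not tested. The log2 ratio of H2-Aa was -0.25 and -0.37 in monocytes, against 1.80 and 2.83 in glioma cells. That of H2-Ab1 was -0.21 and -0.29 in monocytes, against 1.43 and 2.47 in glioma cells. That of H2-Eb1 was -0.50 and -0.43 in monocytes, against 1.64 and 3.04 in glioma cells. That of Cd74 was -0.20 and -0.34 in monocytes, against 1.64 and 2.15 in glioma cells.

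B cells entered no comparison, since tumour 1 held 4 and tumour 2 held 34 of them. Their 7 genes summed to 92.9 and 281.9 UMIs per 10,000, against 4.35 and 8.27 in T cells of the same tumours. In the B cells of tumour 2 Cd74 was at 140.4 and H2-DMb1 at 0.957 UMIs per 10,000.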

How the results depend on the processing

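Over 854 recomputed values of single genes, 734 stayed the same, 22 gained and 25 lost the call, 53 of the values from 1 tumour alone moved by more than the standard error, and 20 reversed. Staying the same means the same direction and call for tested values. For values from 1 tumour alone, which have no test, it means the same direction and within the standard error. Without the replicate block, the count of genes called higher was 2 in endothelial cells and 1 in EGFP-high glioma cells against T cells, 0 in C1q macrophages against microglia and 1 in endothelial against glioma cells, and the pathway list had 3 calls between dendritic cells and C1q macrophages and 0 between C1q macrophages and microglia. Microglia against T cells then had 6 genes called, and the other counts of the 7 genes at an adjusted p were as before. Of all 13008 genes, 1501 were then higher in endothelial, 2252 in glioma and 1183 in microglia against T cells. In C1q macrophages against microglia 35 were, and in endothelial against glioma cells 1422. At an unadjusted p without the block, 2 genes passed in glioma against T cells, 1 in monocytes against microglia and 0 in C1q macrophages against monocytes. The pathway list without it had 3 genes higher and 11 lower in glioma cells, 4 and 5 in endothelial cells and 12 and 1 in dendritic cells, each against T cells. With stricter gates the counts were 1 for endothelial and 2 for glioma cells against T cells, 1 for monocytes against microglia and 0 for endothelial against glioma cells, where H2-Aa was at -0.87, H2-Ab1 at -1.20, H2-Eb1 at -1.09, Ciita at -1.22 and H2-DMb1 at -0.24. H2-DMa was then at -0.43 in endothelial against T cells, and the pathway list had 2 calls between C1q macrophages and microglia. Without the low-count filter 6 genes were called in C1q macrophages against microglia, 4 in C1q macrophages against monocytes and 4 in monocytes against microglia, and the pathway list had 10 calls between dendritic cells and C1q macrophages and 6 between C1q macrophages and microglia. DESeq2 called 2 genes in glioma against T cells and 2 pathway genes in C1q macrophages against microglia. Scaled by library size, endothelial against glioma cells had 1 call, Ciita there was at -0.12 and Cd74 in glioma against T cells at 0.36. With T cells lacking a C1q UMI, 10 pathway genes were called in glioma cells and Cd74 was at 0.72. Without the highest T cell of each tumour, a choice made after seeing the data, Cd74 was at 0.10. H2-DMa in monocytes against microglia was at 0.026 with DESeq2 size factors, 0.026 with the DESeq2 test and 0.16 by library size. Ciita in endothelial against glioma cells was at -0.14 without doublet removal. Leaving out 1 tumour at a time, values with no test, the median over the 7 genes was 0.91 to 1.13 in glioma against T cells, -0.24 to -0.089 in dendritic cells against C1q macrophages and -0.28 to 0.80 in endothelial against glioma cells. Single genes that turned round with 1 tumour left out ranged from -0.53 to 0.22 for Cd74 in glioma against T cells, from -0.50 to 0.034 for H2-Aa in dendritic cells against C1q macrophages, and, in endothelial against glioma cells, from -0.28 to 1.28 for H2-Aa, -0.53 to 0.72 for H2-Ab1, -0.062 to 0.73 for H2-Eb1 and -0.37 to 0.80 for Ciita. Thinned to 1000 UMIs, 0 genes had intervals apart from T cells in endothelial cells, against 1 in tumour 1 and 2 in tumour 2 at 2000. The share of all genes with intervals apart was not computed. The cause of these changes was not tested. Natural killer cells as background were not run, since tumour 1 held 8. Fewer cells and less RNA per cell cannot be told apart in class sums, and 2 tumours limit every test.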
